A study of Mus musculus with 3 samples.

Results

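TEC genes are annotated loci whose transcripts still await experimental proof, and 405 of them were present at 5 TPM or more in each of 3 libraries of chromatin-bound RNA from mouse macrophages. TPM is a length-corrected abundance, scaled to the same total over all features in every library. The 405 members were chosen by that level out of 3213 genes whose transcripts are all of type TEC, in an annotation of 55536 genes. Another 45 genes with a TEC transcript beside a transcript of another type were not members. The share of all TEC genes that met the limit was 12.6%, beside 12.9% of all annotated genes, 26.9% of protein-coding genes, 1.93% of lincRNA genes and 6.15% of antisense genes. The level chose the members, so their TPM values are a description and carry no test.

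The cells were bone-marrow-derived macrophages of C57BL/6J mice, primary cells grown from marrow. They had received lipid A at 100 ng/ml for 12 h, then a washout of 12 h, and then a repeat of the same dose for 90 min. Toll-like receptor 4 senses lipid A, the membrane anchor of bacterial lipopolysaccharide. All 3 libraries, biological replicates 1 to 3, share this treatment and came from the chromatin fraction after depletion of ribosomal RNA, so conditions could not be compared. Starting RNA amounted to 1 µg in replicate 1, to 500 ng in replicate 3 and to 250 ng in replicate 2. Nothing in the labels tells if cultures or animals differed between replicates, and part of the spread between libraries may be technical.

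Manual annotators use the TEC class for clusters of expressed sequence tags, mostly unspliced and with features of polyadenylation, that still have to be shown to be genes. The chromatin fraction keeps RNA that is still attached to its template, and introns of genes in transcription are abundant in it. A TEC block inside an intron can therefore collect reads from the unspliced RNA of the gene around it as well as from a transcript of its own. Reads inside the block do not tell these sources apart.

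The ends of a few members are printed because they show what a reader would look for first, a hexamer that marks the end of polyadenylated transcripts. Each run is 5′ to 3′ on the strand of the member, from the GENCODE M21 transcript sequences on GRCm38 (mm10), and holds the last 60 bases. Capitals mark AATAAA or ATTAAA within the last 50 bases. The first 3 members were the highest by mean TPM and had neither hexamer, while the next 3 were the highest that had one.
A630081D01Rik, chr1:80747222-80747281, minus strand: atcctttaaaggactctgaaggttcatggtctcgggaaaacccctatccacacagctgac
Gm37084, chr1:131086252-131086311, minus strand: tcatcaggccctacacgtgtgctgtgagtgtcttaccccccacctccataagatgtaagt
Gm37666, chr2:69014418-69014477, plus strand: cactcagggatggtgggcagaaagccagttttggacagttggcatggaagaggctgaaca
Gm38062, chr1:80728809-80728868, minus strand: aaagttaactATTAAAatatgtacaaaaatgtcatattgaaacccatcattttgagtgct
Gm43197, chr6:3336772-3336831, minus strand: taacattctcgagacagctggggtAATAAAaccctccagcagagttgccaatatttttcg
Gm47445, chr10:34178235-34178294, minus strand: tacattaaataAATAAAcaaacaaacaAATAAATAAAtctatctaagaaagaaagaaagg

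The 2 shortest members are printed whole, because their high TPM rested on very few reads. Gm47089 holds an AATAAA near its end and Gm43940 holds neither hexamer there.
Gm43940, chr6:139830387-139830551, plus strand: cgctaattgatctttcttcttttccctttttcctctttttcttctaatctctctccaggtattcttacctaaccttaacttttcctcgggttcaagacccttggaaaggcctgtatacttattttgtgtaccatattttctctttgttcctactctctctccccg
Gm47089, chr9:13519936-13520101, plus strand: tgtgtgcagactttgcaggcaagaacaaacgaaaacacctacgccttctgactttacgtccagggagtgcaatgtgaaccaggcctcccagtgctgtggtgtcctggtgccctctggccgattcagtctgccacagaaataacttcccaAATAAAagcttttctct

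Over all 405 members, 82 or 20.2% had AATAAA or ATTAAA in the last 50 bases of the annotated transcript, against 847 or 30.2% of the 2808 other TEC genes. All TEC genes together stood at 28.9%. AATAAA was present in 64 members and ATTAAA in 20, and a transcript with both was counted once in the total. Read on the opposite strand, the same window held a hexamer in 7.65% of members and 7.48% of other TEC genes. Within the members, 52 of the 330 that lay in an intron had a hexamer, which is 15.8%, and 30 of the 75 others had one, which is 40%. Intronic genes made up 81.5% of members and 48.5% of other TEC genes. The hexamer share of the other TEC genes was not split by position, so the part of position in the difference was not tested. The last 20 bases held a median of 7 A in members and 7 A in other TEC genes, and the median GC content was 41.7% in members and 42.3% in other TEC genes. A hexamer match is a description of the annotated end and says nothing of where the RNA ended in these cells.

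The libraries held 12502177, 21683473 and 16844974 expected counts on annotated genes in replicates 1, 2 and 3. The 5 most counted genes took 23.2%, 36.9% and 33.3% of them, and snRNA, snoRNA and scaRNA genes took 45.7%, 37.3% and 35.7% of TPM. All 10 macrophage markers reached 1 TPM in every library, and their summed level was 1227, 1346 and 1169 TPM. Of 31 markers of other lineages, 4 reached that level in every library, with sums per list of at most 50.1 TPM, for the endothelial list in replicate 1. The neutrophil, T cell and B cell lists each had 2 markers listed at 0.

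The members together took 326784, 297191 and 274297 counts in replicates 1, 2 and 3. That was 2.61% of all counts in replicate 1 (95% Wilson interval 2.60% to 2.62%), 1.37% in replicate 2 (1.37% to 1.38%) and 1.63% in replicate 3 (1.62% to 1.63%), or 1.87% ± 0.656 (SD, n = 3). The intervals cover counting error only and are far narrower than the spread between libraries. Of the counts on all TEC genes, the members held 86.9%, 83.8% and 84.7%, and all TEC genes held 3.01%, 1.63% and 1.92% of counts. Of TPM, the members held 1.30%, 0.685% and 0.809%. Replicate 1 had the highest share by each of these measures of the members.

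Counts were spread over many members. The 10 most counted members held 20.0% of the members' counts, and 50 members held 50% of them. The median member had 370, 382 and 345 counts in replicates 1, 2 and 3. In each library 398 members had 20 counts or more, and 7 fell below 20 counts in some library.

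The median member stood at 19.2, 11.0 and 12.9 TPM in replicates 1, 2 and 3, which averages 14.4 ± 4.28 TPM (SD, n = 3). The middle 50% of members lay between 12.0 and 32.4 TPM in replicate 1, 7.81 and 19.1 in replicate 2, and 8.76 and 21.9 in replicate 3. By mean TPM, 296 members reached 10, 130 reached 20, 39 reached 50 and 11 reached 100. Gm37084 was the only member at 100 TPM or more in each library. For scale, the median TPM of the 5912 protein-coding genes that met the same limit was 21.1.

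**Figure D1:**
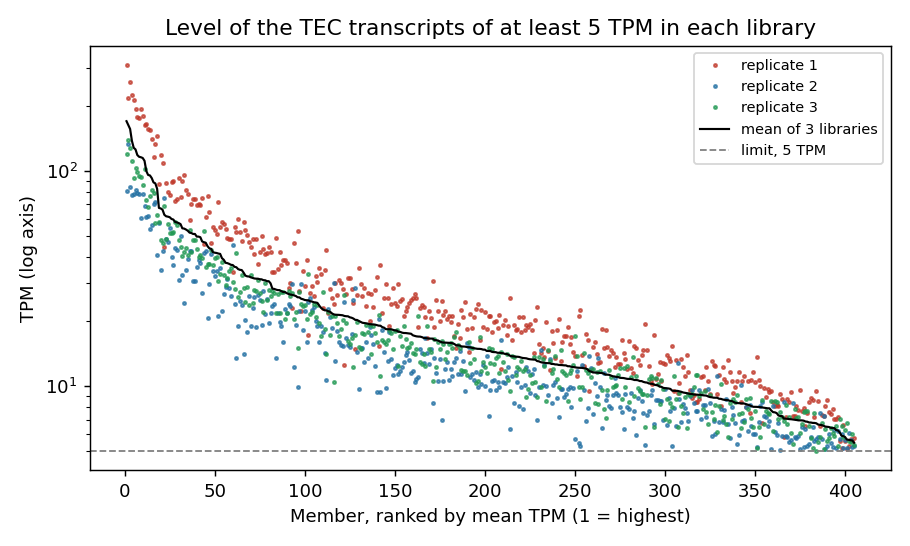
TPM of the 405 members in each library (points, log axis) and their mean (line), ranked by mean TPM from 1, with the limit of 5 TPM dashed. Replicate 1 lies above the mean for most members, and the values run from 309.83 TPM down to the limit.

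At the limit itself the set had no gap. The members just inside were Gm43484 with a lowest TPM right at the limit, Gm45413 with 5.04 and Gm47582 with 5.08. The TEC genes just outside were Gm45354 with 4.93, 4632418H02Rik with 4.91 and Gm37254 with 4.90.

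The highest members lay in introns of genes that were themselves high in these libraries, from 86.1 TPM for Mapkapk2 to 925.8 TPM for Parp14 in the mean. A630081D01Rik, in an intron of Dock10, had 309.83, 80.45 and 120.46 TPM in replicates 1, 2 and 3, with a mean of 170.2 ± 123. Gm37084, in an intron of Mapkapk2, the p38-activated kinase known for its control of cytokine mRNA, had 218.78, 133.13 and 138.66 TPM, a mean of 163.5 ± 47.9. Gm37666, in an intron of the ceramide synthase gene Cers6, had 257.57, 84.61 and 127.73 TPM, a mean of 156.6 ± 90.0. In all of these members replicate 1 was the highest library and replicate 2 the lowest. A630081D01Rik led in replicate 1 only, and Gm37084 was the highest member in replicates 2 and 3. Without replicate 1 the mean of A630081D01Rik was 100.5 TPM, below Gm37084 at 135.9 TPM and Gm37666 at 106.2 TPM.

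The 12 highest members by mean TPM ran from A630081D01Rik at 170.2 TPM to Gm38236 at 99.9 TPM and came from only 7 host genes. Cers6 held 5 of the 12, namely Gm37666, Gm37159, Gm37651, Gm38377 and Gm38236, and Dock10 held A630081D01Rik and Gm38062. The others were Gm37084 in Mapkapk2, Gm49125 in the phospholipase gene Ddhd1 with 118.6 ± 52.7 TPM, and Gm49730 in Parp14 with 116.3 ± 52.1 TPM. Gm43197 lay in the gene Gm20559 with 114.8 ± 56.9 TPM, and Gm47445 in Dse, which encodes a dermatan sulfate epimerase, with 111.4 ± 47.9 TPM. SDs are over n = 3 libraries.

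By counts, Gm37084 led with a mean of 13346 over its 5898 bases. Gm37033, in an intron of the inositol trisphosphate kinase gene Itpkb, followed with 6964 over 7350 bases, and A130071D04Rik, in an intron of the CD45 gene Ptprc, had 5101 over 5864 bases. The longest member, 9330162G02Rik with 30942 bases, had a mean of 5648 counts but 15.95, 10.11 and 11.98 TPM. It lies opposite Ube3a, which encodes a ubiquitin ligase, and its counts were not whole numbers.

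Members were single blocks of moderate length. All but 1 had a single exon, the exception being Gm38316 with 2 exons, and 3 members had 2 transcripts. Their exonic length had a median of 2058 bases (middle 50% from 1412 to 2983, range 165 to 30942), against 1934 bases (1046 to 2780, range 43 to 74456) in the other TEC genes. Protein-coding genes that met the same limit had a median of 5272 bases. Across the 405 members, TPM and length had a Spearman correlation of 0.116, which describes genes that share libraries and often a host. The other TEC genes had a median of 0 TPM.

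The shortest members show how few reads can carry a TPM of this size. Gm43940, 165 bases long, had 23.07, 29.68 and 26.95 TPM from 3, 4 and 3 counts, and 1 count was worth 7.69, 7.42 and 8.98 TPM. The exact 95% Poisson interval of its TPM ran from 4.76 to 67.4 in replicate 1, from 8.09 to 76.0 in replicate 2 and from 5.56 to 78.8 in replicate 3. Its host gene Pik3c2g was listed at 0 in all 3 libraries. Gm47089, 166 bases long, had 14.88, 28.71 and 17.37 TPM from 2, 4 and 2 counts. Gm38109, 181 bases long, had 43.39, 27.62 and 22.22 TPM from 9, 6 and 4 counts. These levels are not resolved from the limit by more than counting error for Gm43940 in replicate 1 and for Gm47089 in replicates 1 and 3, where the lower bound was 4.76, 1.80 and 2.10 TPM. The interval takes as fixed the effective length that TPM divides by, 11.98, 6.86 and 7.40 bases for Gm43940 in replicates 1, 2 and 3. An error in that length is not covered, so the other values of these members are not shown to be resolved from the limit either.

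Position relative to other genes was not used by the rule. Of the 405 members, 330 or 81.5% (95% Wilson interval 77.4% to 85.0%) lay for at least 50% of their length inside a gene on the same strand and in its introns, against 1362 or 48.5% of the 2808 other TEC genes. Another 58 members, 14.3%, overlapped a gene on the opposite strand only, against 14.0% of other TEC genes. Within 10 kb past the end of a same-strand gene lay 11 members, 2.72%, against 8.62%. No host, opposite-strand or preceding gene by these rules was found for 5 members, 1.23%, against 808 or 28.8% of other TEC genes. Such TEC genes may still lie near a gene, or overlap one over less than 50% of their length. These shares carry no test, because neighbouring TEC genes in 1 host are not independent.

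**Figure D2:**
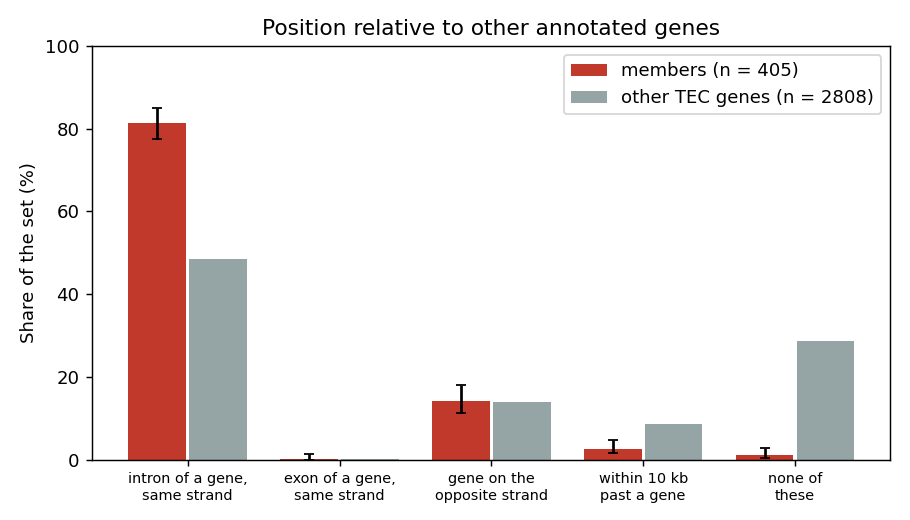
Share of the set (%) in each position class for the 405 members (red, with 95% Wilson intervals) and the 2808 other TEC genes (grey). The intron class holds 81.5% of members and 48.5% of other TEC genes, and the class in none of the other positions holds 1.23% and 28.8%.

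The intronic members were almost clear of host exons. No base of an annotated exon of the host was covered in 310 of 330, and 20 covered some. The single exonic member was Gm43312 in the protein phosphatase gene Ppp1cb, with 22.09, 9.99 and 12.26 TPM. Its counts were not whole numbers.

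The 330 intronic members belonged to 247 host genes, 233 of them protein-coding. Of those, 225 or 96.6% had at least 5 TPM in each library, beside 26.9% of all protein-coding genes. The median mean level was 38.9 TPM over these 247 hosts, against 0.23 TPM over the 785 hosts of other intronic TEC genes only. The host genes spanned a median of 80.4 kb, against 106.1 kb. Reads in an intron count for a host only where one of its annotated transcripts covers them.

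The share of TEC genes that met the limit climbed with the level of the gene around them. This was read over protein-coding hosts, which hold 1533 of the 1692 intronic TEC genes and 306 of the 330 intronic members. For hosts on the same strand it was 1 of 706 where the host had under 1 TPM and 6 of 209 from 1 to 5 TPM. It was 49 of 245 or 20% from 5 to 20 TPM, 100 of 186 or 53.8% from 20 to 50 TPM, 73 of 97 or 75.3% from 50 to 100 TPM, and 77 of 90 or 85.6% above 100 TPM. The median TEC gene had 0 TPM in the lowest class of hosts, 2.96 TPM from 5 to 20 and 22.3 TPM above 100.

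For TEC genes on the opposite strand of a gene the share also climbed, with fewer genes in each class. This was read where the other gene was protein-coding and its exons covered less than 50% of the TEC gene, which leaves 333 of the 450 TEC genes and 54 of the 58 members on the opposite strand only. The share was 0 of 152 under 1 TPM, where the upper Wilson bound is 2.46%, and 8 of 49 or 16.3% from 5 to 20 TPM. It was 11 of 25 or 44% from 50 to 100 TPM and 15 of 19 or 78.9% above 100 TPM, with a Wilson interval of 56.7% to 91.5%. From 50 to 100 TPM the interval was 65.8% to 82.8% on the same strand and 26.7% to 62.9% on the opposite strand. Above 100 TPM it was 76.8% to 91.4% on the same strand. These intervals treat TEC genes as independent although some share a host, so they cannot decide a difference between strands. The difference between strands was not tested.

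**Figure D3:**
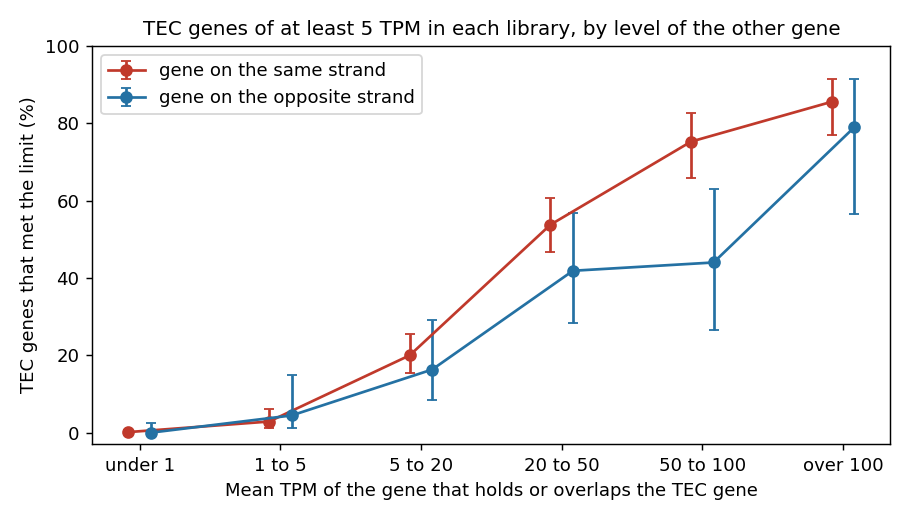
Share of TEC genes that met the limit (%) by mean TPM of the protein-coding gene that holds them in an intron on the same strand (red, 1533 TEC genes) or overlaps them on the opposite strand with exons over less than 50% of their length (blue, 333 TEC genes), with 95% Wilson intervals. Both lines climb, to 85.6% and 78.9% where the other gene was above 100 TPM.

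Most members were lower than their host gene. The median difference in log2(TPM + 1), member minus host, was -1.34 in replicate 1, -1.62 in replicate 2 and -1.54 in replicate 3, or -1.50 ± 0.14 (SD, n = 3). The median ratio of mean TPM was 34.3%. Across the 330 pairs, the Spearman correlation of the 2 levels was 0.50 and the Pearson r of log2(TPM + 1) was 0.54. The pairs share libraries, and members of 1 host share its value, so these describe the data and no more. A member also had to reach 5 TPM in each library and its host did not. The difference, the ratio and the correlations are therefore shaped by the rule and do not hold for intronic TEC genes in general.

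**Figure D4:**
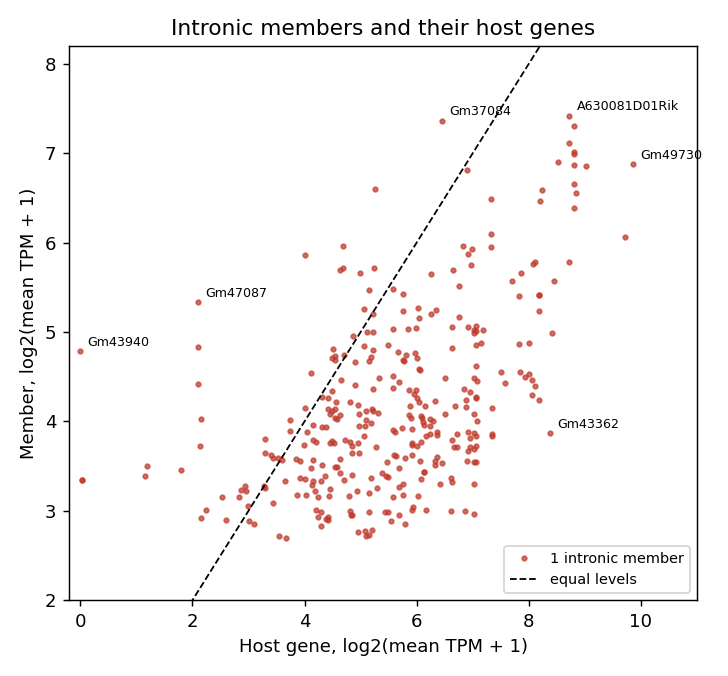
Mean level of each of the 330 intronic members (vertical axis, log2(TPM + 1)) against that of its host gene (horizontal axis, log2(TPM + 1)), with the line of equal levels dashed. Most points lie to the right of the line, where the member is below its host, and 45 lie to its left.

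In mean TPM 45 of the 330 intronic members exceeded their host, and 37 did so in each library. Gm37084 had 163.5 ± 47.9 TPM, against 86.1 ± 24.1 TPM for Mapkapk2. Gm29438 had 157.44, 61.99 and 67.84 TPM in an intron of St3gal5, the ganglioside GM3 synthase gene, which had 37.2 ± 10.8 TPM. By the other deposited count, made from the reads directly, the order of both pairs was reversed. Gm37084 had a mean of 119.5 TPM there, against 231.4 TPM for Mapkapk2, and Gm29438 had 80.8 TPM, against 163.5 TPM for St3gal5. The 45 and the 37 were not recounted by it, and the pairs that follow are not given by it here. Gm48225 had 92.65, 31.26 and 47.78 TPM in Gphn, which encodes the scaffold protein gephyrin, and Gphn had 19.28, 12.08 and 14.12 TPM.

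Maml2, a coactivator gene of the Notch pathway, had 3.97, 2.52 and 3.40 TPM, and all 3 of its members stood above it. Gm47087 had 57.90, 22.30 and 37.75 TPM there and Phxr4 had 38.70, 16.12 and 27.34 TPM, while Gm47089 is the 166-base member with 2 to 4 counts. At the other end, Gm43362 in the splicing factor gene Srsf11 had 13.6 ± 3.98 TPM, against 332.6 TPM for the host. St3gal5, Gphn and Srsf11 and their members were chosen after their values were seen.

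Several hosts held more than 1 member. There were 49 such hosts with 132 members, and 18 of them held 3 or more, 70 members in all. Mir99ahg, the long noncoding host of the miR-99a and let-7c microRNAs, held 9, the calcium and calmodulin dependent kinase gene Camk2d held 7, Cers6 held 6, the Mediator subunit gene Med13l held 5 and the clathrin assembly gene Picalm held 4. The other 13 of the 18 held 3 each.

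Within the hosts of 3 or more members, the member nearest the 5′ end was usually above the member nearest the 3′ end. That was so in 16 of 18 hosts by mean TPM, and in 14 of 18 in each of the 3 libraries. Snd1 and Col4a3bp were the exceptions by mean TPM. Over all 49 hosts with 2 or more members it held in 38.

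Camk2d, with 7 members, followed this order with exceptions. Its most 5′ member, Gm43011, had 52.94, 20.32 and 24.65 TPM in replicates 1, 2 and 3, and its most 3′ member, Gm42514, had 19.36, 9.34 and 11.30 TPM. The members between them lay from 10.7 to 31.4 TPM in the mean, and the lowest of them, Gm43005, was below Gm42514. In Med13l the most 5′ member, Gm43788, had 64.25, 29.73 and 37.08 TPM, and the most 3′ one, Gm43051, had 19.11, 12.27 and 10.68 TPM. In both genes the first member was the higher one in every library.

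In Mir99ahg the mean fell to 8.88 TPM for the most 3′ member, C130023A14Rik, against 30.7 TPM for the most 5′, Gm37466, and the lowest was Gm37241 at 6.78 TPM in the middle of the gene. In Dock10 it was 54.0 TPM for Gm37645, the most 3′ member, against 170.2 TPM for A630081D01Rik. Prkcb, the protein kinase C beta gene, had the widest fold range among the 18 hosts, 7.72 times, from 5.63 to 43.5 TPM. Cers6 did not show a steady order, with a range of 82.6 to 156.6 TPM and its highest member, Gm37666, at 60.4% of the gene's length.

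**Figure D5:**
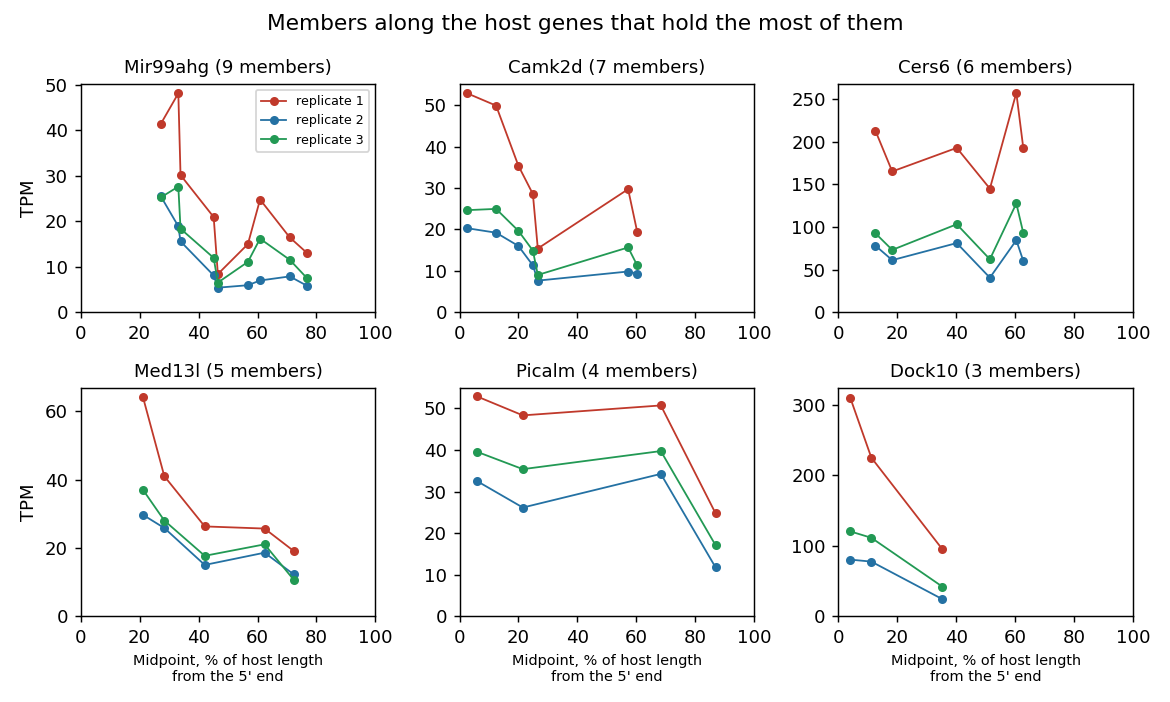
TPM in each library of the members in the 5 hosts with the most members and in Dock10, placed by the midpoint as % of host length from the 5′ end. Levels at the 5′ side exceed those at the 3′ side in Camk2d, Med13l, Mir99ahg, Picalm and Dock10, and Cers6 has its highest member at 60.4%.

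Members are picked for being high, so the order was also read over all intronic TEC genes of a host, members or not. There were 23 hosts of at least 20 TPM with 3 or more such genes, 98 TEC genes in all, of which 58 were members. The most 5′ one exceeded the most 3′ one in 16 of 23 hosts by mean TPM and in 12 of 23 in each library. With each host cut into 3 equal lengths, the median TPM was 19.1 in the 5′ part (33 genes), 12.5 in the middle part (39 genes) and 5.21 in the 3′ part (26 genes). Relative to the host, the median difference in log2(TPM + 1), TEC gene minus host, was -2.76, -2.86 and -3.42 in these parts, so the 5′ and middle parts were close on that scale. Over all intronic members the median midpoint was at 35.2% of the host's length, against 44.2% for the other intronic TEC genes, and 63.6% of members lay in the first 50% of the host, against 56.1%.

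Retained-intron transcripts, which keep an intron in the annotation, took no higher a share of transcript TPM in these hosts than elsewhere. The median over 190 protein-coding hosts with such a transcript was 44.3% ± 2.37 (SD, n = 3 libraries), against 49.4% ± 2.92 for 4062 other protein-coding genes that met the limit. The host value was the lower one in each library, at 47.0%, 43.2% and 42.6%, against 52.7%, 47.5% and 47.9%.

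Of 117 genes at 5 TPM or more on 4 lists of the inflammatory response and of macrophages, 3 were hosts of an intronic member, 2.56%, beside 225 of 5912 protein-coding genes at that level, 3.81%. The lists thus stood near the background. Of 28 genes of the NF-kB pathway and its feedback, each at 5 TPM or more in every library, 2 held an intronic TEC gene, and both TEC genes were members. Gm43430, in Nfkb1, which encodes the p105 and p50 subunit, had 140.63, 56.22 and 81.19 TPM, and Nfkb1 had 570.44, 322.22 and 486.86 TPM. Gm43912, in Irak2, a kinase of Toll-like receptor signalling, had 70.26, 38.60 and 39.71 TPM, and Irak2 averaged 231.6 TPM. Replicate 1 was the highest library for both members.

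Of the 39 interferon genes measured, 1 held an intronic TEC gene, Gm49730 in Parp14, an ADP-ribosyltransferase gene induced by interferon. Gm49730 had 175.71, 78.48 and 94.79 TPM, and Parp14 had 1245, 743.2 and 789.1 TPM. None of the 40 inflammatory genes and none of the 22 macrophage identity genes held an intronic TEC gene in the annotation. No gene of these 2 lists could therefore be the host of a member. On the opposite strand, Gm43963 lay across Irak2 with 38.7 ± 15.7 TPM, Gm43068 across the oligoadenylate synthetase gene Oas2 with 17.6 ± 5.93 TPM and Gm45481 across the interferon regulatory factor gene Irf2 with 14.6 ± 3.47 TPM.

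The 58 members on the opposite strand of another gene ran from 5.65 to 66.9 TPM with a median of 12.7, against a median of 15.0 for the intronic members. Gm45244, opposite the acyl-CoA synthetase gene Acsl1, had 118.80, 34.48 and 47.56 TPM. AC167363.2, opposite Cdkn1a, which encodes the cell cycle inhibitor p21, had 44.28, 74.88 and 68.54 TPM, and Cdkn1a averaged 76.1 TPM. Unlike most members, AC167363.2 was lowest in replicate 1. These opposite-strand members were chosen after their values were seen.

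The strand setting of the counting was not stated, so reads of a member and of a gene across it cannot be told apart with certainty. Expected counts give 1 partial measure of it, since a read that could belong to several features is divided between them. Where no exon lies across a member, only reads that also match other places can be divided. Whole counts there do not tell which strand the reads came from. Counts were whole numbers, to within 0.005, in all libraries for 364 members, and fractional for 41. Among the 343 members that overlapped no exon on either strand, 3 had fractional counts. Among the 35 that overlapped an exon of the opposite strand only, 21 did, and among the 25 that overlapped an exon of the same strand, 15 did. AC167363.2, Gm45244 and Gm43963 were among the members with fractional counts, and Gm43068 and Gm45481 had whole counts.

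The 5 members in none of the other position classes were Gm37352, Gm44154, Gm10388, Gm44141 and Gm9694. Gm37352 had 17.25, 24.73 and 33.21 TPM and was the highest of them, with its lowest value in replicate 1. Gm44154 had 25.67, 13.05 and 16.44 TPM, and the other 3 averaged from 6.39 to 8.60 TPM. No host is annotated for any of these 5, which were named after their values were seen. Among the 11 members past a gene's end, Gm37795 began at the microRNA gene Mir34a, which was listed at 0, and had 16.31, 11.40 and 17.00 TPM. Gm45663 lay past Cdh5, the endothelial cadherin gene, and had 30.93, 8.36 and 10.59 TPM, while Cdh5 itself had 0.07, 0.07 and 0.02 TPM. The 4 endothelial markers, Cdh5 among them, summed to 50.1, 19.3 and 30.6 TPM in the same libraries. Only 2 of the 4 reached 1 TPM in every library, the highest with a mean of 25.5 TPM, and Cdh5 was not among those. Any link of these markers to the level of Gm45663 was not tested.

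Sequence copies limit a few values. Gm20236 and Gm37094 on chromosome 14 have the same 4540 bases and the same TPM, 74.26, 30.88 and 47.69, so 1 value stands for both. Gm37847 and Gm31748, also on chromosome 14, share 1497 bases and had 8.48, 7.67 and 11.25 TPM and 8.48, 7.67 and 11.24 TPM. Reads from the 2 copies of each pair cannot be told apart.

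The members were higher in replicate 1 than in the other libraries. Replicate 1 was the highest library for 340 of 405 members, 84.0%, against 2622 of 5912 protein-coding genes that met the limit, 44.4%. Replicate 2 was the lowest for 302 members. Scaled by TMM factors instead, counts were highest in replicate 1 for 327 members, and by DESeq2 size factors for 333. Replicate 1 also had the most starting RNA and the fewest counts, and replicate 2 the least starting RNA and the most counts. The part of starting amount, depth and the abundant small RNAs in this pattern was not tested. Fewer cells that transcribe a gene and less of its RNA per cell cannot be told apart in bulk RNA.

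The hosts also stood higher in replicate 1, by less. For the 330 intronic pairs the median log2 ratio of replicate 1 over replicate 2 was 0.71 for members and 0.42 for hosts, beside 0.12 for protein-coding genes that met the limit. Replicate 1 over replicate 3 gave 0.53 for members and 0.26 for hosts, beside 0.01. The member moved more than its host in 263 of 330 pairs from replicate 2 to replicate 1, and in 265 from replicate 3 to replicate 1. Between replicates 2 and 3 it did so in 149 of 330, with a median log2 ratio of replicate 2 over replicate 3 of -0.23 for members and -0.17 for hosts. Across pairs, the 2 ratios had a Pearson r of 0.66 for replicates 1 and 2, 0.57 for replicates 1 and 3 and 0.62 for replicates 2 and 3, in which both sides share the libraries.

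The spread of log2(TPM + 1) between libraries had a median SD of 0.40 over members, against 0.24 over the protein-coding genes that met the limit. On log2 counts the members' median SD was 0.37 with TMM factors and 0.38 with DESeq2 size factors. With counts scaled by edgeR, the biological coefficient of variation had a median of 0.263 over the 400 members kept and 0.254 over 12763 other genes kept. Those other genes were not held to the limit of 5 TPM, and each estimate is drawn toward those of other genes. The coefficients therefore cannot be set against the SDs. The member with the widest spread was Gm38235, in the phosphatase gene Phlpp1, with 52.68, 9.92 and 15.03 TPM, and Phlpp1 had 40.43, 13.99 and 21.08 TPM. Gm38357, in the circadian gene Noct, had 52.07, 13.53 and 41.46 TPM, and Noct had 42.42, 15.31 and 51.22 TPM. In both pairs the member and its host were lowest in replicate 2.

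The steadiest members, chosen for the smallest SD, had nearly equal values by that choice. Gm43421, in Zfp644, had 5.70, 5.61 and 5.51 TPM. Gm44951, in Zfp710, had 21.93, 22.74 and 22.18 TPM. 5430434F05Rik, in the methylcytosine dioxygenase gene Tet3, had 20.00, 18.86 and 19.34 TPM, while Tet3 had 48.59, 78.49 and 61.24 TPM. Tet3 was lowest in replicate 1, where its member was at about the level of the other libraries.

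The transcript table made from the reads directly gave like values for most members. The mean TPM was within 1.5 times for 359 of 405, higher there for 43 and lower for 3, with a median ratio of that table to the gene table of 0.871 and a range of 0.259 to 8.74. The Spearman correlation of the 2 tables over members was 0.82. The highest ratios were those of Gm45033, with 51.2 against 5.86 TPM, and Gm47582, with 39.9 against 5.65 TPM, and the lowest that of Gm43940, with 6.87 against 26.6 TPM. The 43 members that were higher in that table had a median length of 1363 bases, against 2147 bases for the rest.

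By that count, 694 TEC genes would meet the limit, 383 of them members. The 311 others had a median of 10.6 TPM there and 0.29 TPM in the gene table, and 98 were listed at 0 in all libraries of the gene table. Of the 311, 162 were intronic on the same strand, 42 were on the opposite strand only, 23 lay past a gene's end and 84 were in none of these positions. The highest of the 311 in that table was Gm47164, in an intron of Lrriq1, with 1401, 971.7 and 1052 TPM in that table and 4.77, 7.08 and 6.38 TPM in the gene table. Gm47164 was chosen after its values were seen.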

How the data were processed

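Per the file headers, the authors derived the gene table of each library from transcriptome alignments, on mm10 with GENCODE M21, and another transcript table straight from the reads. For aligner, quantifiers and strand setting, nothing was given in the sources used here. The expected counts were deposited as estimates, which can be fractional. The deposited TPM are relative to every feature of the table, also those for transfer RNAs and spike-ins. Features outside the annotation were left out of count totals.

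Levels are TPM from the gene table. Members and lists were chosen with earlier results of these data known. A gene was TEC where all its transcripts had that type, and a host was a gene that held at least 50% of the TEC gene's length. Differences are on log2(TPM + 1), which understates those of low genes. Named members are the highest by TPM and counts, the longest, shortest, steadiest and least steady, those at the limit, those with extreme table ratios, those that share a host and those in listed genes. Every other name was chosen after its values were seen. Expected counts were rounded for edgeR 4.0.16 (TMM factors and dispersion, intercept only) and DESeq2 1.42.0 (size factors), in R 4.3.3, and the dispersion step was tested on simulated data. Python 3.11.15, pandas 2.3.3 and SciPy 1.17.1 did the rest. Sequences came from the M21 transcripts, so bases past the annotated ends were not used here. The 3 libraries differed by more than counting error over the members, with a chi-square of 15.3 or more per degree of freedom, so none was treated as a library deposited more than once, which does not show that cultures were separate. Alternatives were other limits, tables, pseudocounts, overlaps and scalings, and leaving out each library.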

Additional observations from a re-analysis of the deposited data

How the results depend on the processing

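The number of TEC genes that met the limit was 828 for a limit of 1 TPM, 212 for 10 TPM and 694 by the other table, against 405, and 413 with TPM rescaled to protein-coding genes. Without 1 library it ran from 411 to 457. The median length was 2109 bases at 1 TPM and 2177 at 10 TPM, against 2058. The share inside a same-strand gene was 75.8% for protein-coding hosts only, against 81.7% with exonic members counted. The median member minus host difference was -1.96 in the other table, against -1.50, and -1.58 to -1.44 without 1 library. The members' share of counts was 2.67% without the 5 most counted genes, an alternative chosen after seeing the data, against 1.87%, and 1.50% to 2.12% without 1 library. The median level ran from 12.0 to 16.1 TPM without 1 library. Other pseudocounts, denominators, overlaps and scalings moved these values by less than the spread between libraries or the counting interval. Of 162 named members, 43 moved by more than 1 SD in the other table, 24 of them higher. Without replicate 1 the mean of 16 of the 162 fell by more than 1.5 times, and without replicate 2 or 3 that of 0 moved so far. The cause of these shifts was not tested. No paired analysis was possible because the libraries form 1 group. Depth limits the 7 members under 20 counts.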

Other observations

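Members were found on 18 chromosomes. Chromosome 1 held 62, chromosome 5 held 59 and chromosome 6 held 45, which is 13.1%, 11.8% and 14.9% of the TEC genes annotated there, beside 12.6% over all TEC genes. The highest share was 22.0% on chromosome 16, where 9 of the 13 members lay in Mir99ahg. Slc6a6, the taurine transporter gene with a mean of 348.9 TPM, was overlapped on its opposite strand by Gm44981, with 75.31, 50.01 and 44.52 TPM, and 4930517G19Rik, with 51.85, 24.99 and 27.31 TPM. Both had whole counts in each library, which by itself does not tell the strand of their reads. They were chosen after their values were seen.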
